A study of Mus musculus with 6 samples.

Results

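The homeostatic microglia genes are a set of 9 genes, P2ry12, Tmem119, Sall1, Siglech, Gpr34, Olfml3, Csf1r, Selplg and P2ry13, taken by name from the 21899 genes of the count table. All 9 were in the table and all 9 passed the filter on low counts. They were measured in the thalamus of 6 wild-type male C57BL/6J mice, bought at 8 to 10 weeks of age, 3 in each of 2 groups. Every mouse had been irradiated with 50 Gy on the left thalamus and had received 2 µL of AAV9 virus in the thalamus 2 weeks later. The tissue was sequenced in bulk 6 weeks after irradiation. The RC group (radiation + control virus) had the virus GFAP104::tdTomato, and the RN group (radiation + NeuroD1) had GFAP104::mND1-tdTomato. GFAP104 is a promoter aimed at astrocytes. Both groups were irradiated and injected, so a value here compares 2 irradiated groups and gives no distance from healthy tissue.

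Microglia are the resident macrophages of the brain and spinal cord. In the undisturbed brain they carry a set of surface receptors with which they sense nucleotides, lipids and growth factors, and they express transcription factors that keep this identity. These homeostatic genes are known to fall when microglia take on a reactive or phagocytic state, in which genes for lipid handling, lysosomes and phagocytic receptors rise. In a library from whole tissue the level of such a gene reflects both the number of microglia and the RNA per cell, and fewer cells and less RNA per cell cannot be told apart.

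The homeostatic set differed little between RN and RC. The fold of RN over RC ran from 0.914 for Csf1r to 1.37 for Olfml3, with a median of 1.09, and 7 of the 9 genes were on the higher side. None of the 9 passed an adjusted p of 0.05, against 0.0735% of the 14956 tested genes, and the adjusted p ran from 0.306 to 0.958 in the edgeR quasi-likelihood test. DESeq2 also called 0 of them. At an unadjusted p under 0.05 there was 1 of the 9, Olfml3, where 11.8% of all tested genes lay under that value. The mice of the 2 groups overlapped for all 9 genes, whereas in 8.18% of tested genes every RN mouse was above every RC mouse and in 8.12% every RN mouse was below. All 9 intervals of the fold (95%) lay within a 2-fold change in either direction, from 0.730 at the lowest bound to 1.96 at the highest. Smaller changes inside these intervals were not detectable with 3 mice a group.

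**Figure D1:**
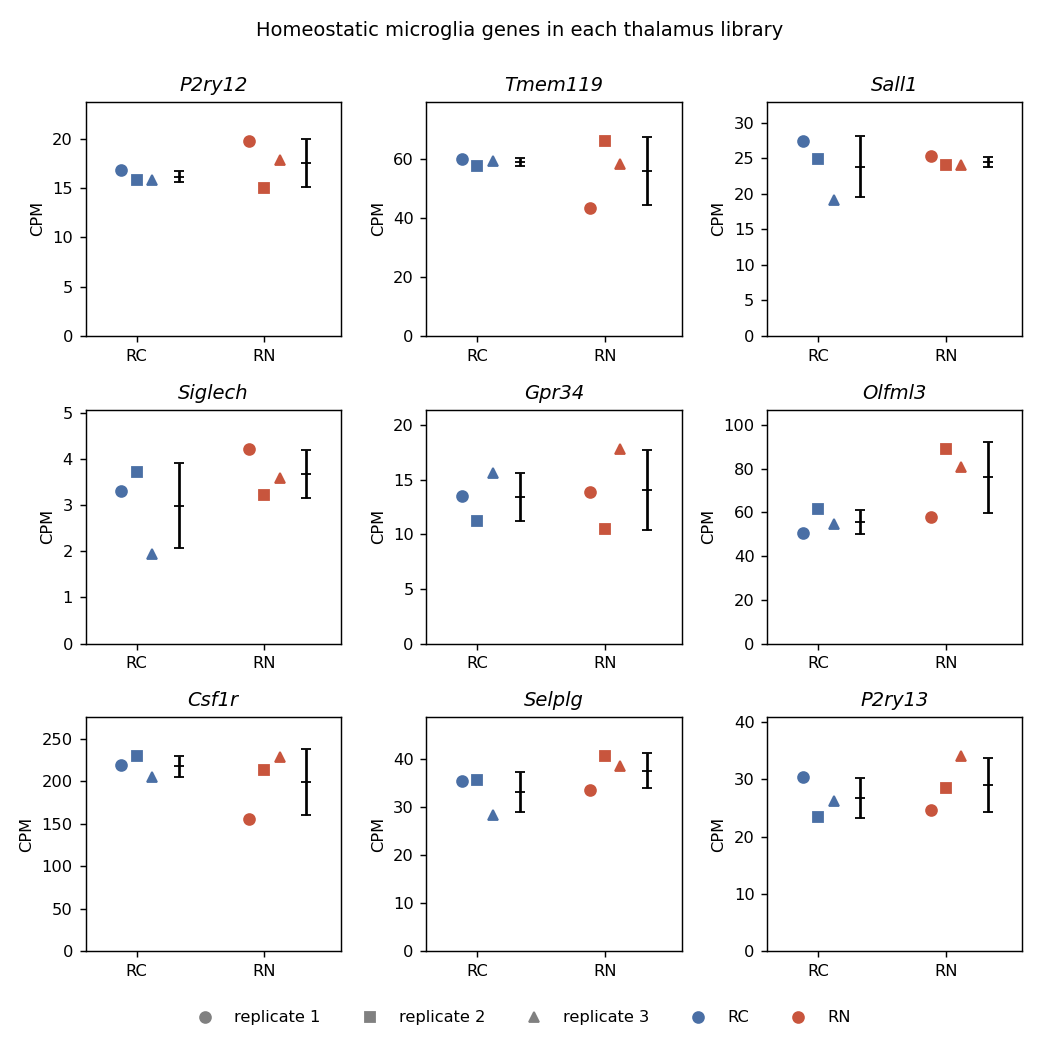
Level of each of the 9 homeostatic microglia genes in CPM (vertical axis from 0) in the 3 RC and 3 RN libraries, with the mean and SD of each group as a black bar. The groups overlap in all 9 panels, and RN replicate 1 is the lowest library for Tmem119 and Csf1r.

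Among the surface receptors, P2ry12 encodes the ADP receptor with which microglia steer their processes towards released nucleotides. Levels are given in CPM, the count scaled to the effective size of the library. P2ry12 was at 16.8, 15.8 and 15.9 CPM (RC replicates 1 to 3) against 19.8, 15.0 and 17.9 CPM (RN replicates 1 to 3). RN replicate 2 was the lowest of the 6 mice and RN replicate 1 the highest, so the RC values lay inside the range of RN. Means were 16.2 ± 0.562 (RC) and 17.6 ± 2.41 CPM (RN), each ± SD with n = 3 mice, a log2 fold change of 0.12 (SE, the standard error, 0.140, adjusted p = 0.825 in the edgeR quasi-likelihood test). P2ry13, a second ADP receptor, was at 30.4, 23.5 and 26.3 CPM (RC) against 24.7, 28.6 and 34.1 CPM (RN). Its values interleaved between the groups, with a log2 fold change of 0.12 (SE 0.152, adjusted p = 0.841). Gpr34, a receptor for lysophosphatidylserine from the same receptor branch, was at 13.5, 11.2 and 15.6 CPM (RC) against 13.9, 10.5 and 17.8 CPM (RN). In both groups replicate 2 was the lowest mouse and replicate 3 the highest, and the log2 fold change was 0.06 (SE 0.218, adjusted p = 0.956).

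Csf1r encodes the receptor for CSF1 and IL-34, on which microglia depend for survival. It had the highest counts of the set, with 3893, 3836 and 3570 (RC) against 2605, 3979 and 4083 (RN). RN replicate 1, at 155.0 CPM, was below the other 5 mice, which lay between 204.5 and 229.2 CPM. Means were 217.4 ± 12.4 (RC) and 198.7 ± 38.7 CPM (RN), a log2 fold change of -0.13 (SE 0.142, adjusted p = 0.809). Without RN replicate 1 it was 0.02, so the sign rested on that mouse. In the annotation GENCODE M21, exons of Csf1r share 873 bases with Hmgxb3 on the opposite strand. Whether the counting used strand is not given in the sources used here, so reads from this stretch could not be assigned. Hmgxb3 itself averaged 40.2 CPM (RC) and 44.3 CPM (RN), with a log2 fold change of 0.14.

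Siglech encodes a sialic acid-binding receptor that is also found on plasmacytoid dendritic cells. It was the least abundant of the set, with 59, 62 and 34 counts (RC) against 71, 60 and 64 (RN). RC replicate 3 was the lowest mouse and the remaining 5 lay between 3.21 and 4.22 CPM. The log2 fold change was 0.30 with the largest standard error of the set, 0.294 (adjusted p = 0.784 in edgeR), and 0.07 without RC replicate 3. Of 6 tested genes from a list of 8 for plasmacytoid dendritic cells, 3 were higher and 3 lower in RN. Ccr9 and Ly6d of that list were under the filter, at 0.535 CPM or less in every mouse. Selplg, the P-selectin ligand that other leukocytes also carry, was at 35.4, 35.6 and 28.3 CPM (RC) against 33.4, 40.5 and 38.5 CPM (RN). Here too RC replicate 3 was the lowest, and the log2 fold change was 0.18 (SE 0.127, adjusted p = 0.674).

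Tmem119, a transmembrane protein used to tell microglia from other macrophages, varied little in RC and widely in RN. It was at 60.0, 57.6 and 59.5 CPM in RC, a coefficient of variation of 2.10%, and at 43.5, 66.1 and 58.3 CPM in RN, a coefficient of variation of 20.6%. RN replicate 1 was the lowest of all mice and RN replicate 2 the highest. The log2 fold change of -0.08 (SE 0.145, adjusted p = 0.905 in edgeR) became 0.08 without RN replicate 1. Sall1, the zinc-finger transcription factor that maintains microglial identity, showed the reverse spread. It was at 27.4, 24.9 and 19.1 CPM (RC) against 25.3, 24.1 and 24.0 CPM (RN), and its log2 fold change was 0.04 (SE 0.147, adjusted p = 0.958). Without RC replicate 3 it was -0.10.

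Olfml3, a secreted olfactomedin-like glycoprotein, stood highest among the members. It had 902, 1029 and 951 counts (RC) against 975, 1667 and 1445 (RN). RN replicates 2 and 3, at 89.1 and 80.8 CPM, were above all RC mice, while RN replicate 1, at 58.0 CPM, lay inside the RC range of 50.6 to 61.5 CPM. Means were 55.5 ± 5.53 (RC) and 76.0 ± 16.1 CPM (RN), a fold of 1.37 with an interval from 1.06 to 1.77. Its log2 fold change was 0.45 (SE 0.160, unadjusted p = 0.0215, adjusted p = 0.306 in edgeR), and 0.162 was the adjusted p in DESeq2. With the replicate number as a block the adjusted p was 0.150. Without RC replicate 2 the groups of Olfml3 no longer overlapped, and without RN replicate 1 neither those of Olfml3 nor those of Selplg did. Without RN replicate 2 the same held for P2ry12, with RN above RC. The share of all tested genes that separate with a mouse left out was not computed, so these separations are a description.

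**Figure D2:**
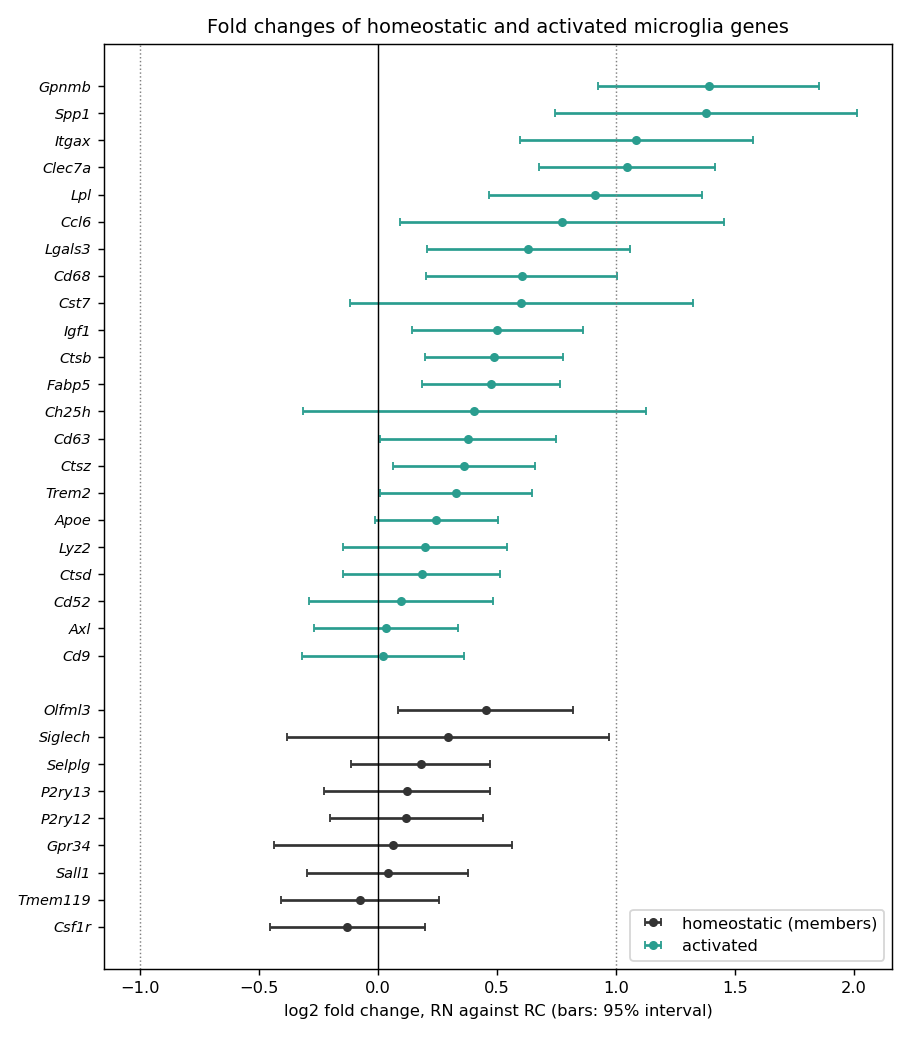
Log2 fold change of RN against RC (horizontal axis, bars give the 95% interval from the edgeR fit, dotted lines mark a 2-fold change) for the 9 homeostatic genes and for 22 genes of activated microglia. All 9 homeostatic intervals lie inside the dotted lines and 8 of them span 0, whereas the 22 activated genes all lie to the right of 0.

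The members did not move as 1 block from mouse to mouse. Averaged over the 9 genes, each centred over the 6 mice, the log2 level was 0.02, -0.03 and -0.16 (RC replicates 1 to 3) against -0.05, 0.05 and 0.17 (RN replicates 1 to 3). RN replicate 3 was above the mean of the 6 mice for all 9 genes and RC replicate 3 for 2 of them. RN replicate 1 held both the highest value of P2ry12 and Siglech and the lowest of Tmem119 and Csf1r. As a description over 6 libraries, the pairwise Pearson r ran from -0.88 between P2ry12 and Tmem119 to 0.85 between Sall1 and Siglech, and was 0.85 between Tmem119 and Csf1r. These libraries share their depth range but differed in tissue content, with choroid plexus sums from 77.5 to 8550.1 CPM. The part of this in the correlations was not tested, and 6 points leave such values imprecise. The range from lowest to highest mouse was 1.32-fold for P2ry12, the narrowest, and 2.17-fold for Siglech, the widest.

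On a scale of CPM per kilobase of exon (lengths from GENCODE M21), Csf1r had the highest level, 37.6 ± 2.15 in RC and 34.4 ± 6.69 in RN. Tmem119 followed at 25.5 ± 0.534 and 24.2 ± 4.97, and the range of its 6 mice met that of Csf1r. P2ry13 and Olfml3 came next, with 10.6 ± 1.38 and 9.01 ± 0.897 in RC and 11.5 ± 1.86 and 12.3 ± 2.62 in RN, and the 2 overlapped. Selplg, P2ry12, Gpr34 and Sall1 followed in that order, from 8.27 to 4.58 per kilobase as means of the 6 mice, each overlapping the range of its neighbour. Siglech was lowest, at 0.883 ± 0.273 in RC and 1.08 ± 0.152 in RN, below every value of the other members. Csf1r made up 45.9% of the summed CPM of the set, and that sum lay between 425.5 and 463.1 CPM in RC and between 377.8 and 503.3 CPM in RN.

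In the RefSeq gene order of GRCm38.p6, P2ry12 and P2ry13 are direct neighbours among protein-coding genes, close to their relatives P2ry14 and Gpr171, and Tmem119 is the direct neighbour of Selplg. The neighbours did not share a pattern over the mice: P2ry12 was highest in RN replicate 1, where P2ry13 was among the lower values. Tmem119 was lowest in RN replicate 1, where Selplg was at 33.4 CPM, above RC replicate 3. P2ry12 shares 9 exonic bases with Med12l on the opposite strand, and P2ry13 and Gpr34 lie across from Med12l and Cask without a shared exon.

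RefSeq promoter windows of 300 bases, from 250 before to 50 after the start, were found for 5 of the 9 members, P2ry12, Sall1, Siglech, Olfml3 and P2ry13. They are shown because myeloid genes are known to be read by PU.1, an ETS factor that microglia require, whose core sequence GGAAGT was searched on both strands. A match was found for 3 of the 5 genes, namely P2ry12, Siglech and 1 of 3 windows of Sall1, and none was found for Olfml3 or P2ry13. Over all 27025 genes with a window, 26.5% had a match. The pattern GAANNGAA, a spaced repeat read by IRF factors, matched none of the 5 genes, where 22.7% of all genes had it. Such a match is a run of letters and not a measured binding site. Each stretch below lies before the start, is written 5′ to 3′ on the strand of the gene in the build GRCm38.p6, and has the match in capitals (ACTTCC is GGAAGT on the other strand).
P2ry12, minus strand, window chr3:59262936-59263235: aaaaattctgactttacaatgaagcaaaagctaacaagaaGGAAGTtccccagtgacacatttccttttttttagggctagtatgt
Siglech, plus strand, window chr7:55767934-55768233: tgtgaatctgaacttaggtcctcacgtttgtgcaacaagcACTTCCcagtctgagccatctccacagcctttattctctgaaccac
Sall1, minus strand, window chr8:89042813-89043112: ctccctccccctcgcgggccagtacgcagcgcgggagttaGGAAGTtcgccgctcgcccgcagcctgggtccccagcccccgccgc
The genes with a match, P2ry12, Siglech and Sall1, had log2 fold changes of 0.12, 0.30 and 0.04, and those without, Olfml3 and P2ry13, of 0.45 and 0.12. Spi1, which encodes PU.1, was at 17.6, 20.7 and 20.5 CPM (RC) against 20.0, 24.0 and 27.0 CPM (RN), with overlapping groups (log2 fold change 0.27, adjusted p = 0.535 in edgeR).

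Other microglia-enriched genes had a median likewise close to 0, with log2 fold changes from -0.96 to 1.03. Of 20 further microglia-enriched genes, 19 were tested, with a median log2 fold change of 0.07 against 0.00 over all tested genes, 12 higher and 7 lower. None passed an adjusted p of 0.05 in edgeR, and 1 in each direction had an unadjusted p under 0.05. Cx3cr1, the fractalkine receptor, was at 145.8, 143.3 and 150.1 CPM (RC) against 100.1, 126.4 and 160.0 CPM (RN), with RN replicate 1 lowest as for Csf1r and Tmem119. The higher gene was Lag3, an inhibitory receptor, at 11.1, 10.6 and 9.28 CPM (RC) against 19.8, 26.6 and 17.1 CPM (RN) (log2 fold change 1.03, standard error 0.187, adjusted p = 0.0967). The lower gene was Ltc4s, leukotriene C4 synthase, whose mean went from 6.39 ± 2.57 to 3.27 ± 0.392 CPM (log2 fold change -0.96, standard error 0.307, adjusted p = 0.249).

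Among 12 transcription factors of microglia, 6 were higher and 6 lower, with a median log2 fold change of 0.02 and no adjusted p under 0.05 in edgeR. Every RN mouse was above every RC mouse for 2 of the 12, beside the 8.18% over all tested genes. Among them, Irf8, which microglia need for their development, was at 34.3, 29.7 and 28.3 CPM (RC) against 36.3, 39.8 and 40.5 CPM (RN) (log2 fold change 0.34, standard error 0.109, adjusted p = 0.257).

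Of 13 signals that maintain microglia, 10 were higher and 3 lower in RN, with a median log2 fold change of 0.09 and no adjusted p under 0.05 in edgeR. Csf1 and Il34, the ligands of Csf1r, had log2 fold changes of 0.17 (SE 0.186, adjusted p = 0.804) and 0.10 (SE 0.211, adjusted p = 0.916), both with overlapping groups. Tgfb1, the cytokine that sustains the homeostatic programme, was at 27.5, 29.8 and 25.5 CPM (RC) against 28.7, 42.0 and 37.4 CPM (RN) (log2 fold change 0.39, standard error 0.149, adjusted p = 0.358). RN replicate 1 was again inside the RC range. Itgb8, an integrin subunit that activates TGF-beta, is expressed by glia other than microglia. Itgb8 was lower in every RN mouse, at 61.2, 58.4 and 59.9 CPM against 82.3, 75.5 and 75.6 CPM (log2 fold change -0.38, standard error 0.081, adjusted p = 0.126). It was 1 of the 13 genes of this list with an unadjusted p under 0.05 on the lower side, Tgfb1 being 1 on the higher side.

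Of 16 relatives of the nucleotide receptors and enzymes of nucleotide breakdown, 13 were tested, 8 higher and 5 lower, with no adjusted p under 0.05 in edgeR. The smallest p belonged to Adora1, an adenosine receptor of neurons and other cells, whose RN mice were lower by a log2 fold change of -0.32 (SE 0.089, adjusted p = 0.204). Entpd1, the enzyme CD39 that breaks down ATP and ADP on microglia, had a log2 fold change of 0.24 (SE 0.154, adjusted p = 0.634). P2ry4 and Gpr82 were among those under the filter.

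Genes of activated microglia were the contrast to the homeostatic set. All 22 genes of that list were tested and all 22 were on the higher side in RN, with a median log2 fold change of 0.48 against 0.12 for the 9 homeostatic genes. An unadjusted p under 0.05 was found for 14 of the 22, beside 1 of the 9 and the 11.8% over all tested genes. Every RN mouse was above every RC mouse for 9 of the 22, beside 0 of the 9 and the 8.18% over all. None of the 22 passed an adjusted p of 0.05 in edgeR. In DESeq2 9 of the 22 did, beside 475 of all 18782 genes in that fit. The list was chosen with earlier results of these data known, so these counts are a description and not independent evidence. Gpnmb, a glycoprotein of phagocytic macrophages, was at 357.9, 512.2 and 402.3 CPM (RC) against 862.6, 1436 and 1033 CPM (RN) (log2 fold change 1.39, standard error 0.202, adjusted p = 0.0630). Spp1, which encodes osteopontin, was at 221.0, 302.3 and 264.7 CPM (RC) against 408.7, 960.2 and 677.4 CPM (RN) (log2 fold change 1.38, standard error 0.276, adjusted p = 0.116). Clec7a, the beta-glucan receptor dectin-1, and Itgax, the integrin CD11c, had log2 fold changes of 1.04 and 1.09 (adjusted p = 0.0666 and 0.108). Cd68, a lysosomal protein used as a marker of phagocytic microglia, was at 113.0, 140.7 and 121.6 CPM (RC) against 143.4, 235.6 and 191.0 CPM (RN), higher in every RN mouse (log2 fold change 0.60, SE 0.174, adjusted p = 0.208). The count of 14 was lowest without RN replicate 2, at 9 of 22.

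**Figure D3:**
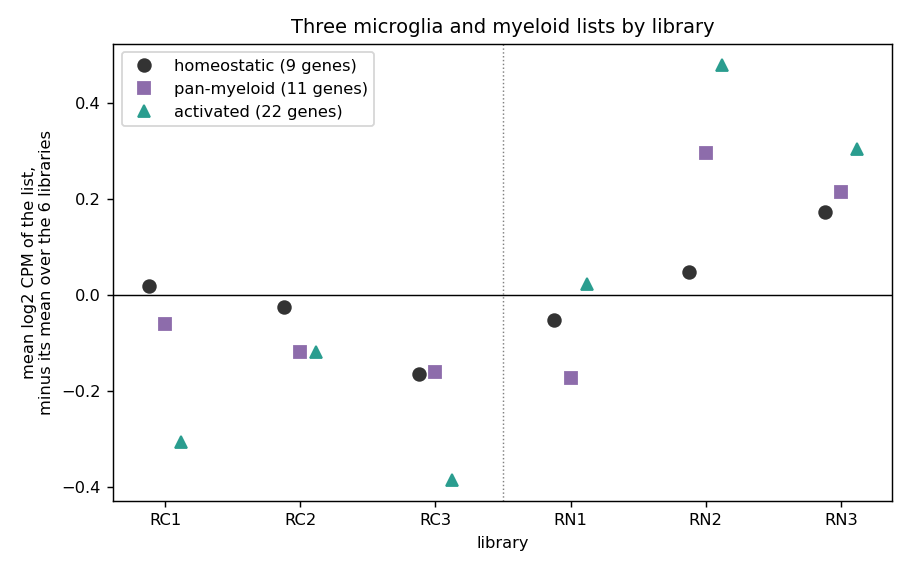
Mean log2 CPM of the 9 homeostatic, 11 pan-myeloid and 22 activated microglia genes in each library (RC and RN replicates 1 to 3), each list centred on its mean over the 6 libraries. The activated list lies between -0.39 and -0.12 in RC and between 0.02 and 0.48 in RN, while the homeostatic list spans -0.16 to 0.02 in RC and -0.05 to 0.17 in RN.

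The distance between both lists within a library separated the groups. The mean log2 CPM of the homeostatic genes minus that of the activated genes was -1.91, -2.14 and -2.02 in RC and -2.31, -2.67 and -2.37 in RN, so each RN mouse was below each RC mouse. No p is given for this difference, since it is a score over a chosen set. The mean of the activated list alone also separated the groups.

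Genes expressed across the myeloid lineage served as a reference inside each library. Of 11 such genes, 10 were on the higher side in RN, with a median log2 fold change of 0.27, and none passed an adjusted p of 0.05 in edgeR. Tyrobp, the adaptor of TREM2 and related receptors, was the 1 gene of the 11 whose groups did not overlap (8.18% of all tested genes were higher in this way), with 79.1, 88.7 and 84.0 CPM (RC) against 97.4, 122.2 and 114.9 CPM (RN) (log2 fold change 0.41, standard error 0.105, adjusted p = 0.173). Aif1, which encodes Iba1, had a log2 fold change of -0.12 (SE 0.162, adjusted p = 0.860).

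Relative to the mean log2 CPM of these genes, 2 of the 9 members, Tmem119 and Csf1r, were lower in every RN mouse than in every RC mouse. This was so for 14.9% of all tested genes, and the higher direction for 1.68%, so 2 of 9 is close to the share over all genes and the values below are a description. Tmem119 lay at -0.85, -0.85 and -0.77 log2 units from the reference in RC and at -1.20, -1.07 and -1.17 in RN. The difference was -0.32 (two-sided exact permutation test, p = 0.1, the smallest that 3 against 3 allow). Csf1r lay at 1.01, 1.14 and 1.01 in RC and at 0.63, 0.62 and 0.80 in RN, a difference of -0.37 with the same exact p. The spread of both genes in RN, SDs of 0.07 and 0.10, was narrow on this scale, on which RN replicate 1 no longer stood apart. For the other 7 members the groups overlapped, with differences between -0.18 for Gpr34 and 0.21 for Olfml3 and exact permutation p of 0.2 or more. Leaving out a mouse can only add to such a count, and the share over all tested genes was not computed for it. Without RN replicate 1, P2ry12 and Sall1 were also lower in every remaining RN mouse, and P2ry13 was so without RC replicate 2. Olfml3 separated in the other direction, higher in RN, without either of these mice. Against the mean of Csf1r and Cx3cr1 in place of the pan-myeloid genes, Tmem119 was 0.08 higher in RN with overlapping groups, so the direction depends on the reference. With that reference Olfml3, Selplg and P2ry13 did not overlap, all higher in RN, by 0.61, 0.36 and 0.30. The share of all tested genes that separate against this reference was not computed, so this count is a description. Csf1r, itself a member, and Cx3cr1 were both lowest in RN replicate 1. A ratio within a library shows unequal change and not which of its terms moved.

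**Figure D4:**
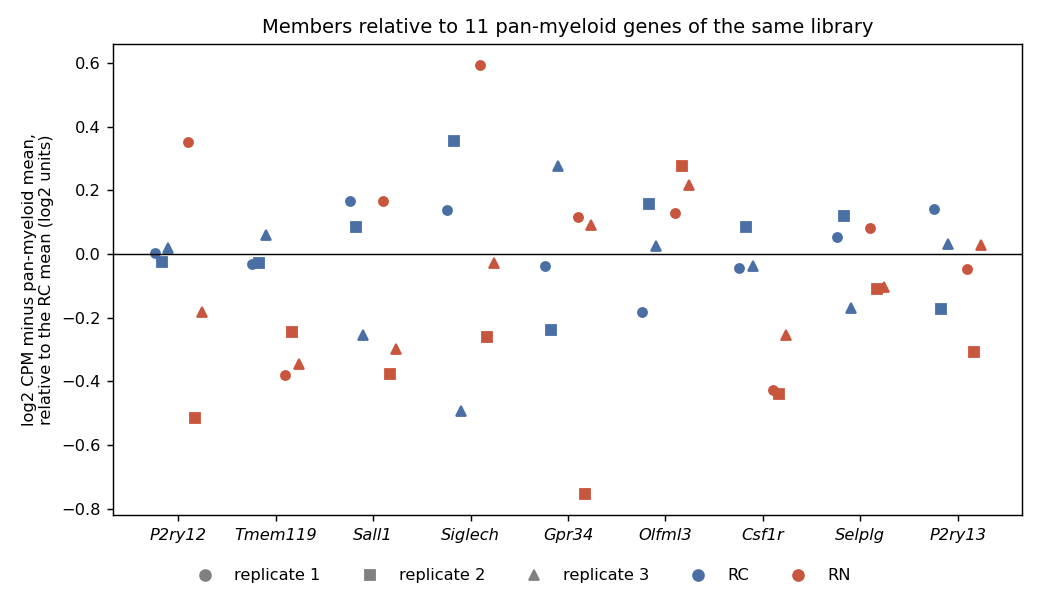
Log2 CPM of each member minus the mean log2 CPM of 11 pan-myeloid genes in the same library, shown as the distance from the RC mean (vertical axis, log2 units) for the 3 RC and 3 RN mice. The RN points of Tmem119 and Csf1r lie below all RC points, and the groups overlap for the other 7 genes.

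Markers of other cells moved with the groups beside these values. Library totals lay between 16561663 and 18657015 counts. Neurod1, the gene in the RN virus, had between 84 and 91 counts in RC and between 910 and 1711 in RN. All 12 choroid plexus genes were lower in RN, and their summed level ran from 335.6 to 8550.1 CPM in RC and from 77.5 to 157.6 CPM in RN, with RC replicate 2 highest. Ttr, the transthyretin gene, had between 4491 and 127609 counts in RC and between 415 and 1642 in RN. Of the thalamic markers all 8 were present and lower in RN on average, with sums of 758.6 to 1625 CPM in RC and 552.8 to 1113 CPM in RN, which overlapped. Astrocyte genes summed to 5941 to 7630 CPM in RC and 4088 to 5259 CPM in RN, and endothelial genes to 408.5 to 479.6 and 299.9 to 379.5 CPM, without overlap. Neuronal genes (3541 to 4355 against 4127 to 4429 CPM) and oligodendrocyte genes (12208 to 15835 against 9817 to 13355 CPM) overlapped. Sums also overlapped for border macrophage genes (265.6 to 289.9 against 189.8 to 302.9 CPM), for monocyte and neutrophil genes (72.7 to 83.6 against 72.8 to 97.1 CPM) and for lymphocyte genes (18.0 to 34.4 against 12.3 to 25.4 CPM). Of 10 tested lymphocyte genes, 2 were higher and 8 lower in RN, with a median log2 fold change of -0.82 and no adjusted p under 0.05 in edgeR. RC replicate 1 had the highest lymphocyte sum, 34.4 CPM. RC replicates 2 and 3, at 18.0 and 19.4 CPM, lay inside the range of RN. For 2 of the 10 every RN mouse was below every RC mouse, beside 8.12% of all tested genes. Cd209f, a marker of border macrophages, was at 0.178 CPM or less in every mouse. The plasmacytoid dendritic cell list summed to 453.7 to 465.8 CPM in RC and 483.1 to 494.6 CPM in RN, without overlap. Pacsin1, which neurons also express, averaged 302.1 CPM (RC) and 314.5 CPM (RN) of that sum. Irf7 had the highest log2 fold change of the list, 0.89, averaging 30.0 CPM (RC) and 55.5 CPM (RN) with overlapping groups. Cox6a2 was lower in every RN mouse, averaging 14.6 CPM (RC) and 7.25 CPM (RN). With Ccr9 and Ly6d at or near 0, the sum is not a measure of these cells. The part of these cells in the members' values was not tested. A choroid plexus score, the mean centred log2 CPM of those genes, was 1.75, 3.09 and -0.70 in RC and -1.61, -1.39 and -1.16 in RN. Every RN mouse was below every RC mouse, so a fit cannot tell this score apart from group. With that score as a covariate Siglech had a log2 fold change of 1.01, Sall1 of 0.36 and Selplg of 0.46, the signs of Gpr34 and Csf1r turned to -0.22 and 0.03, and no member passed an adjusted p of 0.05 (0.489 or more in edgeR).

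By the Pearson r of log2 CPM over the 6 libraries, the genes most like the mean of the members among 14947 other tested genes were Pcdhga7, Pdcd11, Hdac4, Epsti1 and Osgin1, with r between 0.977 and 0.987. Among those most like P2ry12 were Htr2a, Fip1l1, Prkg1 and Gmeb1, with r between 0.983 and 0.993. None of these 9 is on the microglia lists used here. With so many genes and 6 points, values of this size are a description of the ranking alone.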

How the data were processed

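Bulk RNA-seq counts of 3 RC and 3 RN libraries were used, grouped by the sample titles. The authors deposited whole-number counts per gene, not normalized, with 1 column per mouse. The submitters' processing notes name fastp 0.18.0, FastQC, HISAT2 2.2.4, RSEM 1.2.19 and the build GRCm39 without their roles. Counts written by RSEM would be rounded estimates. The annotation and the use of strand are not given in the sources used here.

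Counts were filtered with filterByExpr (minimum count 10), scaled by TMM and fitted by group with the quasi-likelihood test of edgeR 4.0.16 in R 4.3.3. P-values were Benjamini-Hochberg adjusted over 14956 genes. Log2 CPM had a prior count of 2. DESeq2 1.42.0, the tool of the study, and the other settings of the closing section were alternatives. Steps were tested on simulated data. Lists were described by counts and medians with no test. All 200 list entries were in the table. Exon lengths came from GENCODE M21 and promoters from RefSeq, both on GRCm38, so no gene coordinates are given beyond the promoter windows.

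Named genes were all members, up to 4 genes with the smallest p of each other list, and Aif1, Cd68, Cx3cr1, Csf1, Il34, Tgfb1, Neurod1 and Ttr. Hmgxb3, Med12l, Cask and genes under the filter were named later. Some genes that this rule names are not reported here. The members and lists were chosen with earlier results of these data known. Between mice of the same replicate number, deviations from the group mean had correlations across genes of 0.173, 0.120 and 0.209. RC replicate 1 and RN replicate 2, which do not share a number, had 0.156, above the 0.120 of replicate 2. These values establish no pairing, and the labels name none. Blocked values are given as an alternative where they bear on a result. In each pair of libraries the chi-square per degree of freedom over genes was 15.8 or more, above counting noise, and all were kept apart. P-values measure the spread between these 6 samples.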

Additional observations from a re-analysis of the deposited data

How the results depend on the processing

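None of the 9 members passed an adjusted p of 0.05 in any of the 13 alternatives. Of their 117 recomputed log2 fold changes, 109 kept the direction and 8 turned. Gpr34 turned to -0.22 and Csf1r to 0.0310 once the choroid plexus score entered the fit. That score separated the groups, so its part and that of the group cannot be told apart there. With 1 mouse left out, Gpr34 lay between -0.14 (without RN replicate 3) and 0.231, and was -0.05 without RC replicate 2. Csf1r then lay between -0.241 and 0.0213 and Tmem119 between -0.220 and 0.0765, both turning without RN replicate 1. Sall1 lay between -0.10 (without RC replicate 3) and 0.155, and P2ry13 between -0.00528 (without RN replicate 3) and 0.228. The cause was not tested. The number of members whose groups do not overlap, 0, lay between 0 and 2 with 1 mouse left out, and that relative to the pan-myeloid list, 2, between 2 and 5. Both counts can only stay or rise when a mouse is left out. The 5, reached without RN replicate 1, mixed directions, with Olfml3 higher in RN and the others lower. No share over all tested genes was computed with a mouse left out, so these counts are a description. Against Csf1r and Cx3cr1 as the reference the relative count was 3, with Olfml3, Selplg and P2ry13, all higher in RN, in place of the 2 lower genes. No share over all tested genes was computed for that reference. Tmem119 turned to 0.0815, and Csf1r, then against Cx3cr1 alone, to 0.0627. Over all genes, 11 passed an adjusted p of 0.05 with a fold of at least 2. DESeq2 called 186, edgeR without a filter on low counts 43, the replicate block 22, the choroid plexus covariate 1, and the fits that left out a mouse between 3 and 30. The 14 of 22 activated genes, a count whose alternatives were chosen after seeing the data, lay between 9 and 17 with 1 mouse left out. The replicate block changed the call of no member, and with it the adjusted p ran from 0.150 for Olfml3 to 0.917 for Gpr34. Counting depth limits Siglech most, at 34 to 71 counts a library.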
